A study of Monascus purpureus with 6 samples.

Results

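The 7 heat shock chaperone genes described here are HSP70 (gene-MAP00_003300), HSP90 (gene-MAP00_004401), HSP88 (gene-MAP00_004934) and HSP98 (gene-MAP00_002633), taken as cytosolic, and HSP60 (gene-MAP00_007968), HSP10 (gene-MAP00_007250) and HSP78 (gene-MAP00_000280), taken as mitochondrial. They were taken by gene symbol and are 7 of the 9836 genes in the deposited tables. RNA was sequenced at day 1 from mycelia of Monascus purpureus, strain MP2022 (genotype WT), a mould known for its red pigments. There were 3 control libraries and 3 metal-ion libraries, from a condition described in the titles as optimized. For the metal-ion samples, MgSO4·2H2O was at 2.5 g/L and ZnSO4·2H2O was at 0.0 g/L. For the controls, the label says untreated and then names ZnSO4·2H2O at 2.0 g/L with MgSO4·2H2O at 1.0 g/L, so what the control medium held is not clear. The comparison belongs to a search for a zinc and magnesium ratio that serves ethanol and pigment production together.

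Heat shock chaperones bind unfolded proteins and help them fold, and most are made in unstressed cells as well as after heat. In the cytosol, Hsp70 takes up newly made or unfolded chains, Hsp90 acts later on signalling and regulatory clients, and a disaggregase of the Hsp100 family pulls proteins out of aggregates. Mitochondria import most of their proteins unfolded and carry a chaperone set of their own, in which an Hsp60 barrel with an Hsp10 lid encloses the folding chain. The compartments given here follow what these proteins are known for in Saccharomyces cerevisiae and Neurospora crassa. Protein location was not measured, and RNA counts cannot check it.

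The libraries held 33638067 to 38927910 counts. Metal-ion replicate 2 stood apart from the other metal-ion libraries: in log2 CPM (counts per megaread of library, scaled by the TMM method of edgeR) its score on principal component 1, which took up 48.6% of the variance, was 9.78, against 30.4 and 31.8 for replicates 1 and 3 and -27.9 to -21.3 for the controls. The values of the 7 chaperone genes are therefore given with this replicate shown separately. Of 9048 tested genes, 603 rose and 481 fell at an adjusted p under 0.05 (edgeR quasi-likelihood test, Benjamini-Hochberg), and 860 and 344 when scaled by total counts alone. Without metal-ion replicate 2, 1320 rose and 1509 fell of 9138 tested genes. Changes in mRNA per cell and changes in the mix of cells in the mycelium cannot be told apart in these data.

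None of the 7 chaperone genes passed the test with all 6 libraries, against 12% of all tested genes (edgeR, 0 of 7; 3 lower at an unadjusted p under 0.05, as were 13.5% of all genes; DESeq2 called 2 that fell, against 9% of all genes, and limma on log2(FPKM + 1) called 0). In metal-ion replicates 1 and 3, all 7 mRNAs were below every control library. In metal-ion replicate 2, HSP70, HSP90, HSP98 and HSP78 were above every control library, while HSP88, HSP60 and HSP10 were at 93.8 to 95.4% of the control mean. These sets did not follow the compartments, since the mitochondrial HSP78 lay with HSP70, HSP90 and HSP98 and the cytosolic HSP88 lay with HSP60 and HSP10.

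**Figure D1:**
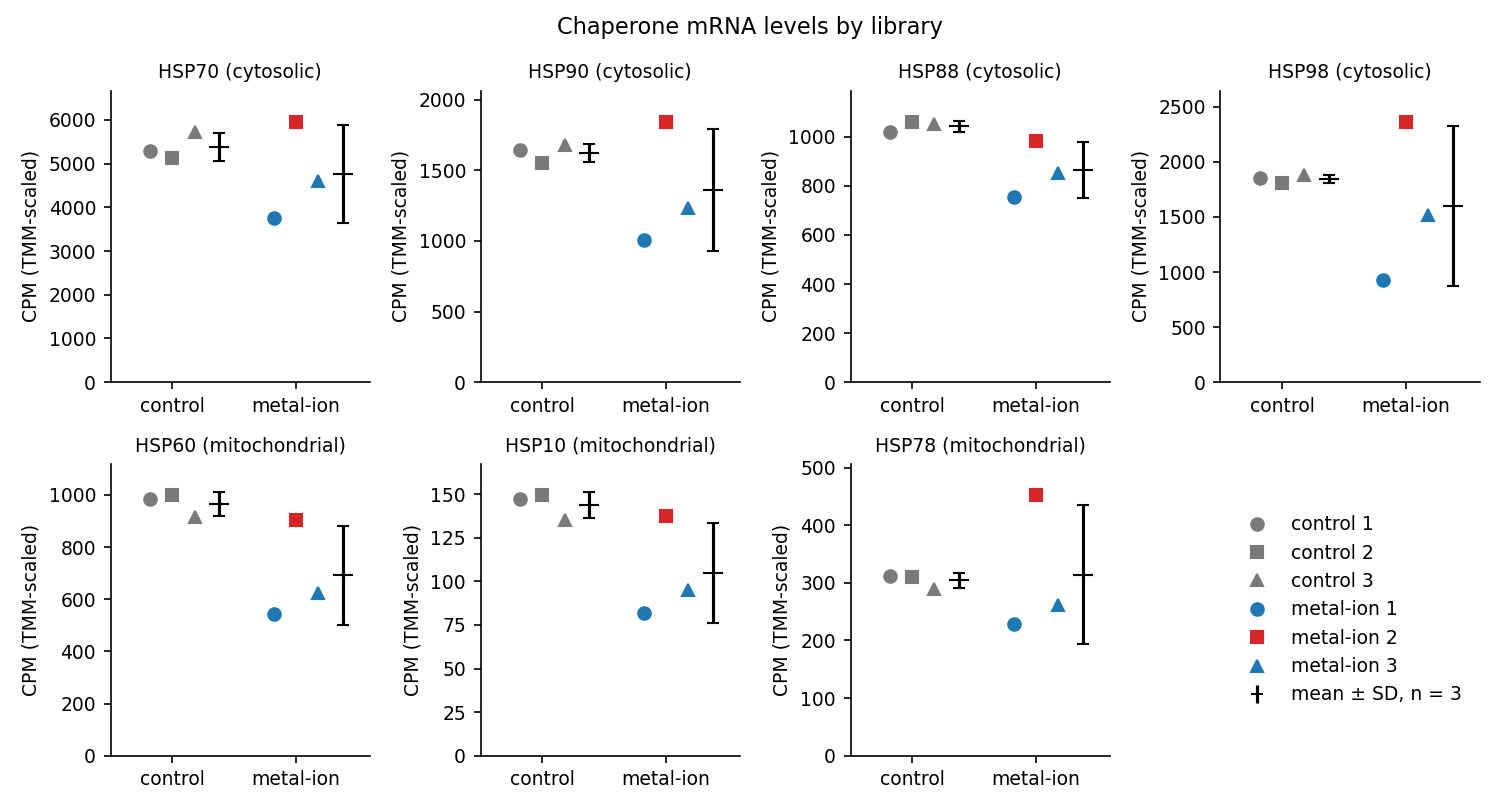
Levels of the 7 chaperone mRNAs in CPM in each library, with the mean and SD of each group (n = 3). Metal-ion replicate 2 (red) is the highest metal-ion library for every gene, and replicates 1 and 3 (blue) are below all controls.

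HSP70, which binds unfolded chains in the cytosol, was the most abundant member. It stood at 5292, 5123 and 5728 CPM in control replicates 1, 2 and 3 and at 3746, 5957 and 4594 CPM in metal-ion replicates 1, 2 and 3. The groups overlapped, with metal-ion replicate 2 the highest of all libraries and replicate 1 the lowest. Its log2 fold change, metal-ion over control, was -0.18 ± 0.17 (SE; 95% interval -0.54 to 0.19; edgeR adjusted p = 0.524). Its gene model overlaps that of MAP00_003299 in the annotation, and the library kit does not mark strand. That neighbour held 295 to 445 counts per library against 146702 to 227629 for HSP70.

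HSP88 is the fungal Hsp110, an Hsp70 relative that helps Hsp70 exchange its nucleotide. Its levels were 1018, 1061 and 1050.05 CPM in control and 755, 984 and 851 CPM in metal-ion mycelia. All 3 metal-ion libraries were below all 3 controls, and metal-ion replicate 2 came nearest to them. The log2 fold change was -0.27 ± 0.12 (95% interval -0.54 to -0.00093, edgeR adjusted p = 0.171). It was the member that differed least between metal-ion replicates.

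HSP90, the chaperone of kinases and other regulatory clients, had 1640.0, 1554 and 1678 CPM in control and 1009, 1843 and 1233 CPM in metal-ion libraries. Again replicate 2 lay above and replicates 1 and 3 lay below all controls. The log2 fold change was -0.25 ± 0.19 (95% interval -0.68 to 0.17, edgeR adjusted p = 0.417).

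HSP98, the cytosolic disaggregase known in Saccharomyces cerevisiae as Hsp104, spread most widely. Control libraries stood close together, at 1856, 1805 and 1879 CPM, while metal-ion libraries stood at 924, 2364 and 1514 CPM. Metal-ion replicate 1 held 50.04% of the control mean and replicate 2 held 128%. The log2 fold change was -0.21 ± 0.26 (95% interval -0.79 to 0.37, edgeR adjusted p = 0.645), and it was 0.066 without metal-ion replicate 1.

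HSP60 forms the mitochondrial folding barrel. It had 983, 999 and 914 CPM in control and 543, 905 and 626 CPM in metal-ion mycelia. The groups did not overlap in CPM, but the highest metal-ion library, replicate 2, was close below the lowest control. In the deposited FPKM they did overlap, with metal-ion replicate 2 at 365.7 and control replicate 3 at 364.6. The log2 fold change was -0.48 ± 0.17 (95% interval -0.87 to -0.10) and did not pass (edgeR adjusted p = 0.0976), while DESeq2 called it (log2 fold change -0.50, adjusted p = 0.0236).

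HSP10, the lid of the HSP60 barrel, had 147, 149 and 135 CPM in control and 82.1, 137 and 95.02 CPM in metal-ion libraries. Metal-ion replicate 2 lay within the control range and the others lay below it. The log2 fold change was -0.46 ± 0.16 (95% interval -0.82 to -0.10; edgeR adjusted p = 0.0965; DESeq2 adjusted p = 0.0384). In CPM, HSP60 and HSP88 were the 2 members whose groups did not overlap with metal-ion lower, which held for 16% of all tested genes. HSP10 had the fewest counts of the 7, with 3216 in metal-ion replicate 1, where counting error alone gives a 95% Poisson interval of 3106 to 3329.

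HSP78, the mitochondrial relative of HSP98 and likewise a disaggregase, was the member with no lower mean in metal-ion mycelia. It had 312, 311 and 289.9 CPM in control and 228, 452 and 261 CPM in metal-ion libraries. Metal-ion replicate 2 held 149% of the control mean, the highest percentage of any member in any library. The log2 fold change was 0.045 ± 0.21 (95% interval -0.43 to 0.52, edgeR adjusted p = 0.910), and its sign turned without metal-ion replicate 2.

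**Figure D2:**
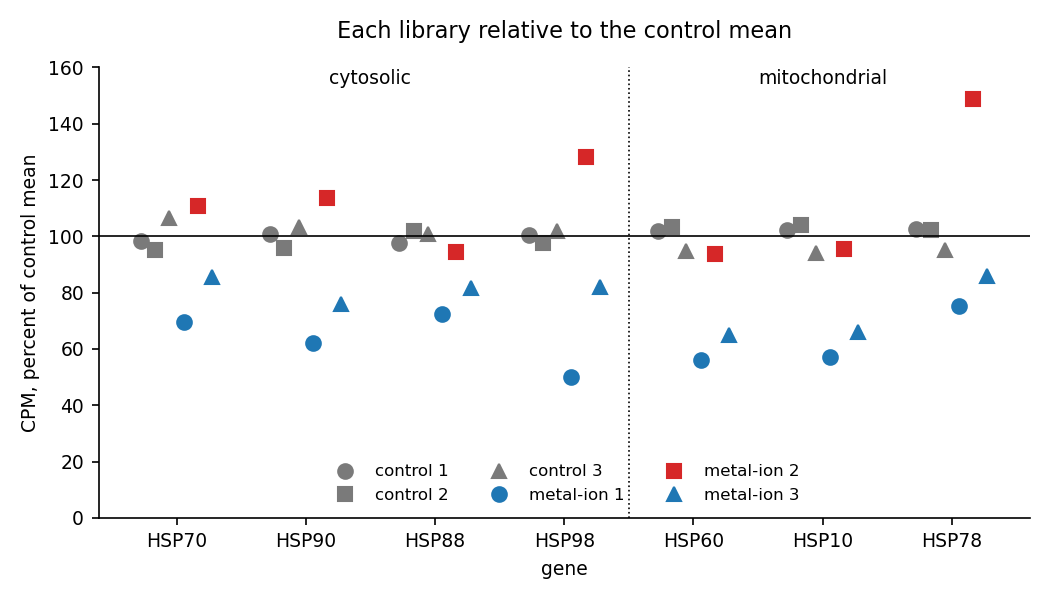
CPM of each gene in each library as a percentage of the control mean of that gene (line at 100). Control libraries lie between 93.9 and 106% for all 7 genes, metal-ion replicates 1 and 3 between 50.04 and 85.8%, and metal-ion replicate 2 between 93.8 and 149%.

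Without metal-ion replicate 2, all 7 genes fell, against 16.5% of the 9138 genes tested in that fit (edgeR). HSP60 had the lowest log2 fold change, -0.73 ± 0.086 (adjusted p = 8.97e-05), followed by HSP10 at -0.71 ± 0.089 (adjusted p = 0.000150). HSP98 was at -0.61 ± 0.15, HSP90 at -0.54 ± 0.089, HSP88 at -0.38 ± 0.078 and HSP70 at -0.37 ± 0.088. HSP78 had the smallest change, -0.32 ± 0.087 (adjusted p = 0.0166). The 95% intervals of HSP60 (-0.92 to -0.54) and HSP78 (-0.51 to -0.13) did not overlap. The difference between genes was not tested. Without any one of the other 5 libraries, 0 of the 7 passed (edgeR, with 0 to 2 at an unadjusted p under 0.05). Those 5 fits called few genes of any kind, with 94 to 139 fallen of 9118 to 9142 tested. These 7 calls rest on leaving out a library that was known to stand apart.

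**Figure D3:**
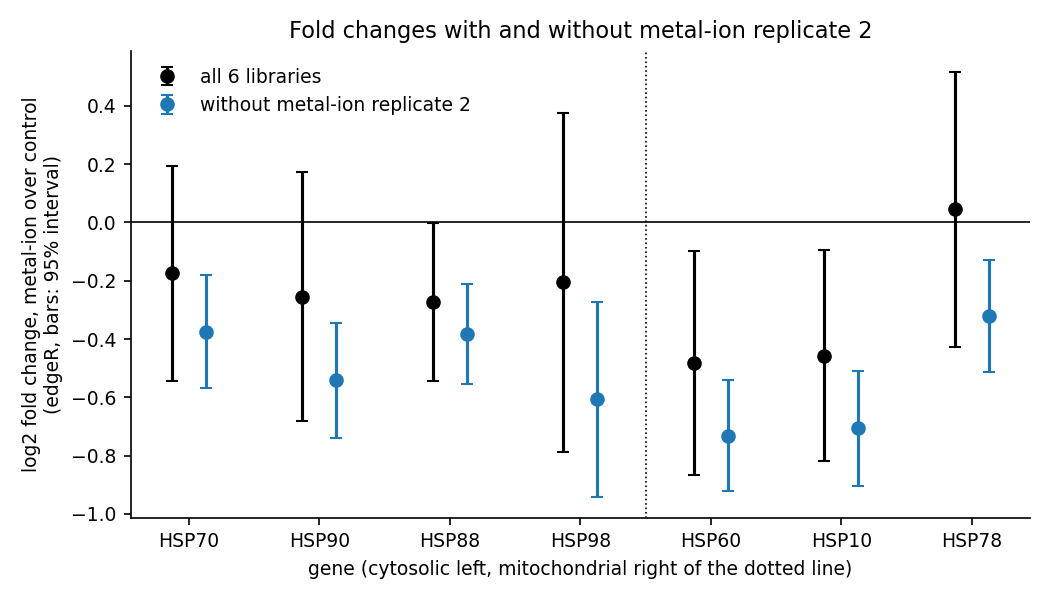
Log2 fold changes, metal-ion over control, from edgeR with 95% intervals, with all 6 libraries (black) and without metal-ion replicate 2 (blue). With all 6 libraries, HSP60, HSP10 and HSP88 have intervals below 0, though none passed after adjustment. Without that replicate all 7 intervals are below 0.

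The distance of metal-ion replicate 2 from the other metal-ion libraries was measured for each gene as its log2 CPM minus the mean of replicates 1 and 3. This difference was 1.00 for HSP98, 0.89 for HSP78, 0.72 for HSP90, 0.64 for both HSP10 and HSP60, 0.52 for HSP70 and 0.30 for HSP88. The disaggregases of both compartments came first, at percentiles 98.7 and 98.2 of all tested genes, and HSP88 came last, at percentile 80.8. The median was 0.64 over the 7 members and -0.0050 over all tested genes, and 6 of the 7 exceeded 0.5, as 8.52% of all genes did. Metal-ion replicate 2 was the highest of the 6 libraries for 4 of the 7 members and for 14.2% of all genes. The same 4 members had replicates 1 and 3 below all controls and replicate 2 above them, an order found in 3.53% of all genes. All 7 had replicates 1 and 3 below all controls, as did 27% of all genes.

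**Figure D4:**
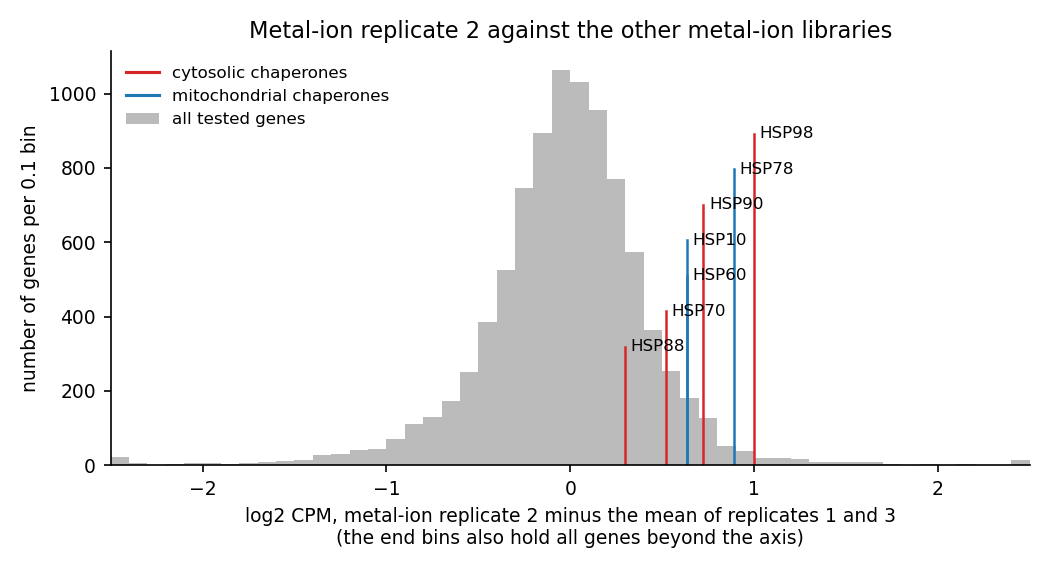
Number of tested genes by the log2 CPM of metal-ion replicate 2 minus the mean of metal-ion replicates 1 and 3 (grey, 0.1 per bin), with the 7 chaperone genes marked. All 7 lie to the right of 0, from 0.30 for HSP88 to 1.00 for HSP98.

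Levels of different genes were compared per length, as the deposited FPKM (counts scaled to gene length and to library size). In control mycelia HSP70 stood at 2067 ± 134 FPKM (SD, n = 3), followed by HSP98 at 600.3 ± 17.9, HSP90 at 556 ± 26.6, HSP10 at 422 ± 20.5, HSP60 at 383 ± 16.0, HSP88 at 346 ± 5.41 and HSP78 at 101 ± 3.85. No neighbours in this order overlapped between control libraries. By mean FPKM over all 6 libraries, HSP70 ranked 35 and HSP78 ranked 1048 of the 9836 genes.

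In metal-ion mycelia the order was less clear. HSP98 stood at 552 ± 218 FPKM and HSP90 at 498 ± 127 FPKM, and in replicate 1 HSP90 was above HSP98, at 401 against 348 FPKM. HSP88, at 308 ± 21.5 FPKM, was above HSP60 in replicates 1 and 3 and below it in replicate 2, while it was below HSP60 in every control library. HSP10 was at 329 ± 70.6, HSP60 at 294 ± 62.8 and HSP78 at 111 ± 36.0 FPKM. HSP70 remained highest, at 1961 ± 336 FPKM, and HSP78 lowest in all 3 libraries.

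Summed over a compartment, the cytosolic genes held 9805, 9543 and 10335 CPM in control and 6434, 11148 and 8192 CPM in metal-ion libraries. The mitochondrial genes held 1442, 1459 and 1339 CPM in control and 853, 1495 and 982 CPM in metal-ion libraries. Both CPM sums were below all controls in metal-ion replicates 1 and 3 and above all controls in replicate 2. The log2 ratio of group means was -0.20 for the cytosolic and -0.35 for the mitochondrial sum, and -0.44 and -0.62 without metal-ion replicate 2. Without metal-ion replicate 1 the values were -0.033 and -0.19, and on summed FPKM with all 6 libraries they were -0.10 and -0.30. In summed FPKM, the mitochondrial genes of metal-ion replicate 2 stood at 928, within the control range of 860 to 931. The cytosolic genes of that library were above all controls in FPKM too. The mitochondrial genes made up 20.7, 21.4 and 18.6% of the summed FPKM of all 7 in control and 18.6, 18.5 and 17.2% in metal-ion libraries. On this measure metal-ion replicate 2 lay with the other metal-ion libraries, though the lowest control nearly touched the highest metal-ion value. As a percentage of summed CPM the groups overlapped. HSP70 alone makes up most of the cytosolic sum, and no test was made on sums over members.

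Ratios between members within a library do not depend on how libraries are scaled. HSP60 over HSP10 was the steadiest of the 21 pairs, at 0.904, 0.904 and 0.915 in control and 0.894, 0.892 and 0.891 in metal-ion libraries, a range of 1.03-fold over all 6. The other pairs ranged by 1.155-fold to 1.96-fold. The ratio of barrel mRNA to lid mRNA was slightly lower in all 3 metal-ion libraries, replicate 2 included, than in any control. The gap between the nearest libraries lies within counting error, since the count of HSP10 in metal-ion replicate 1 alone carries a 95% interval of about ± 3.47%.

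HSP60 over HSP78 was 3.78, 3.85 and 3.78 in control and 2.85, 2.40 and 2.87 in metal-ion libraries. All 3 metal-ion libraries, replicate 2 included, had less HSP60 mRNA relative to HSP78 mRNA than any control. HSP70 over HSP60 was 5.21, 4.96 and 6.06 in control and 6.68, 6.36 and 7.10 in metal-ion libraries, so that HSP60 was also low against HSP70 in every metal-ion library. HSP98 over HSP78 was 5.84, 5.69 and 6.36 in control and 3.97, 5.13 and 5.69 in metal-ion libraries, with the groups only just apart. In all, 8 of the 21 pairs did not overlap between groups. Among pairs of all expressed genes this held for 33.1%, so the count is near the background.

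**Figure D5:**
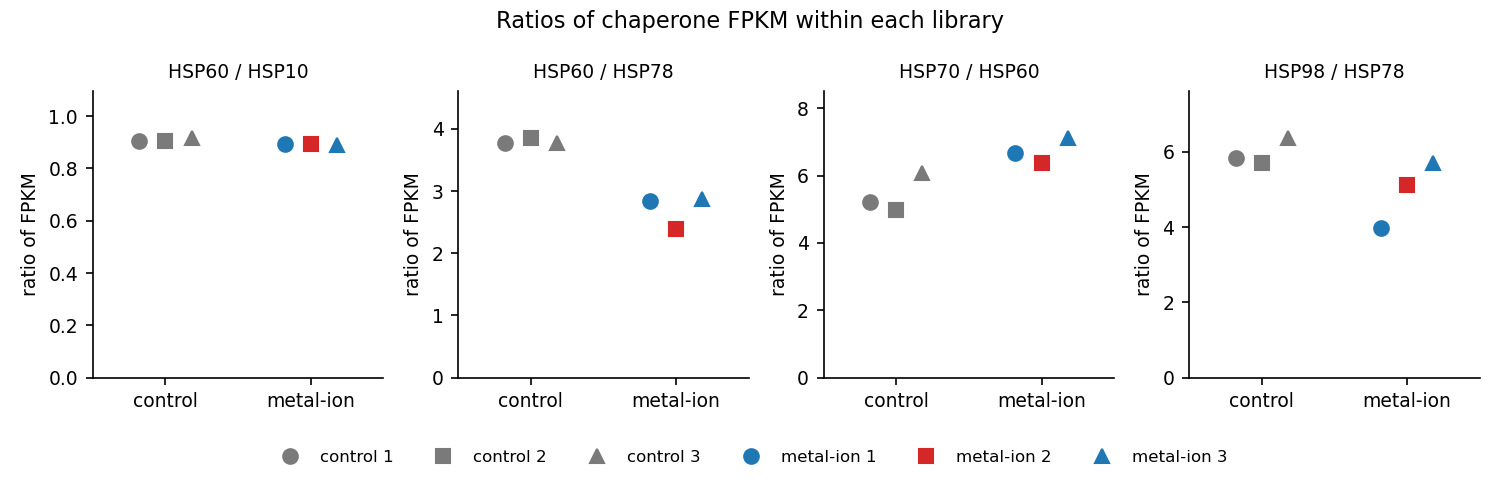
Ratios of FPKM between members within each library, for 4 of the 21 pairs. HSP60 over HSP10 stays between 0.891 and 0.915, and HSP60 over HSP78 is 3.78 to 3.85 in control and 2.40 to 2.87 in metal-ion libraries.

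Across the 6 libraries, Pearson correlations of log2 CPM between members ran from 0.61 for HSP88 and HSP78 to 0.999 for HSP60 and HSP10. HSP70, HSP90 and HSP98 formed a close set, at 0.967 to 0.985, and HSP88 was closer to HSP60 (0.979) than to HSP70 (0.884). These values pool metal-ion replicate 2 with the rest and describe the same 6 libraries, which also share their depth, group and scaling. Of 824 other genes with a symbol and at least 10 CPM, those most like HSP60 were RPL43 (0.998), SMD1 (0.998), ADK1 (0.996), PRT1 (0.996) and NMT1_1 (0.995). Those most like HSP98 were TOP2 (0.978), CAP2 (0.975), SEC31 (0.960), MCM5 (0.960) and TRX1 (0.957). None of these 10 genes passed the edgeR test with all 6 libraries, and PRT1 overlaps other gene models. HSP70 and HSP90, at 0.975 and 0.967, were no closer to HSP98 than TOP2 and CAP2 were.

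Other genes of protein folding were matched by symbol from 8 lists, of which 4 matched 21 genes, all tested. Of the 21, 2 fell and 0 rose in edgeR. At an unadjusted p under 0.05 in edgeR, 11 were lower and 0 higher, and 13.5% of all genes were lower. DESeq2 called 9 lower and 0 higher, and 9% of all genes lower. The median log2 fold change of the 21 was -0.31, against -0.25 for the 7 chaperones and 0.027 for all tested genes, of which 5.32% fell. Without metal-ion replicate 2, 15 of the 21 fell, against 16.5% of all genes in that fit. Without any one of the other libraries none passed (edgeR, 7 to 9 lower at an unadjusted p under 0.05). In those fits 94 to 139 of 9118 to 9142 tested genes fell.

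Among partners of cytosolic Hsp70, 1 of 3 genes fell in edgeR, against 5.32% of all tested genes. It was SSB1, the ribosome-bound Hsp70 that receives new chains as they leave the ribosome. SSB1 had 1509, 1523 and 1494 CPM in control and 701, 1286 and 813 CPM in metal-ion mycelia (log2 fold change -0.69 ± 0.20, edgeR adjusted p = 0.0455). The groups did not overlap, and on the log2 scale it fell by 1.00 without metal-ion replicate 2. SSB1 and HSP70 belong to one family, and whether the authors' counting divided reads between family members was not tested. FES1_1 and FES1_2, named for a nucleotide exchange factor of Hsp70, both had log2 fold changes of -0.19 and did not pass. Both fell without metal-ion replicate 2, FES1_1 at -0.36 (edgeR adjusted p = 0.00932) and FES1_2 at -0.48 (edgeR adjusted p = 0.00370). In that fit 16.5% of all genes fell.

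Of 3 Hsp90 partners none passed in edgeR, and 1 was lower at an unadjusted p under 0.05, as were 13.5% of all genes. DESeq2 called 1 as fallen, against 9% of all genes. RVB1, an ATPase that works with Hsp90 in assembling large complexes, had a log2 fold change of -0.35 ± 0.11 (edgeR adjusted p = 0.0649), and it fell, at -0.49, without metal-ion replicate 2 (edgeR adjusted p = 0.000894). CPR6, a cyclophilin that binds Hsp90, had a log2 fold change of -0.27 ± 0.16 (edgeR adjusted p = 0.300), and like HSP90 it was highest in metal-ion replicate 2, at 344 CPM against 311 to 324 CPM in control. Without that library CPR6 fell, at -0.51 (edgeR adjusted p = 0.000891). The other gene, RVB2, had a log2 fold change of -0.10 ± 0.10 (edgeR adjusted p = 0.559) and was also highest in metal-ion replicate 2. RVB2 did not pass without that library, at -0.21 (edgeR adjusted p = 0.0656). In that fit 2 of the 3 genes fell, against 16.5% of all genes.

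Of 7 genes of the cytosolic chaperonin CCT, the ring that folds actin and tubulin, 1 fell in edgeR, against 5.32% of all tested genes. CCT1 had 237, 247 and 241 CPM in control and 163, 215 and 156 CPM in metal-ion mycelia (log2 fold change -0.44 ± 0.13, edgeR adjusted p = 0.0463). In all 7 the groups did not overlap and the values lay between -0.44 and -0.31, with a median of -0.34. Groups that did not overlap, with metal-ion lower, were found in 16% of all genes. All 7 had an unadjusted p under 0.05, as 13.5% of all genes did in this direction, and were called by DESeq2, which called 9% of all genes as fallen. CCT4 followed at -0.38 ± 0.11 (edgeR adjusted p = 0.0555). CCT mRNAs were below all controls in metal-ion replicate 2 as well, with a median difference between it and the other metal-ion libraries of 0.31.

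Of 8 genes of mitochondrial folding, import and proteolysis none passed in edgeR and DESeq2 called 0, with a median log2 fold change of -0.094. In edgeR 2 were lower at an unadjusted p under 0.05, as were 13.5% of all genes. PAM18 and PAM16, subunits of the motor that pulls proteins into the matrix, had the lowest adjusted p of the list (0.100 and 0.111 in edgeR), and their log2 fold changes were -0.35 ± 0.13 and -0.34 ± 0.13. Without metal-ion replicate 2 both fell, at -0.46 and -0.41 (edgeR adjusted p = 0.00885 and 0.0377), as did the prohibitin gene PHB1, at -0.30 (edgeR adjusted p = 0.0179). PIM1, the Lon protease of the matrix, had 182, 168 and 163 CPM in control and 189, 189 and 202 CPM in metal-ion libraries (log2 fold change 0.18 ± 0.092, edgeR adjusted p = 0.234). YTA12, a subunit of a protease of the inner membrane, was at 0.16 ± 0.11 on the log2 scale (edgeR adjusted p = 0.362), and its gene model overlaps another. With all 6 libraries PHB1 and PHB2, also a prohibitin gene, were at -0.21 and -0.16. In the fit that left out metal-ion replicate 2, 3 of these 8 genes fell, against 16.5% of all genes, and 0 rose (edgeR, 1 of the 21 list genes higher at an unadjusted p under 0.05; DESeq2 was not run without that library). The lists of small heat shock proteins, endoplasmic reticulum folding, stress transcription factors and conidium markers matched no symbol and were not analysed here.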

How the data were processed

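Per the labels' protocols, libraries of cDNA were prepared from mRNA (NEBNext Ultra, no strand marking) for Illumina HiSeq sequencing. TopHat2 was used, per the submitters' processing notes, while the build, annotation and read counter are not given in the sources used here. Counts per gene, as whole numbers, and FPKM per gene were deposited for the 6 libraries. Columns were matched to samples by their descriptions. Symbols and overlaps between gene models came from the annotation of assembly ASM2599979v1 by locus tag (9151 of 9836 genes matched), and no coordinates are given.

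Counts were tested with edgeR 4.0.16 (TMM, default low-count filter, quasi-likelihood test, two-sided, Benjamini-Hochberg over all 9048 tested genes; R 4.3.3). The test was also run on simulated data. The outcome is not given here, and no statement about the chaperone genes rests on it. The standard error is the fold change over the root of its F statistic. Alternatives used DESeq2 1.42.0, limma 3.58.1, other scalings, no filter, a replicate block and the removal of each library. From each list, genes that passed and up to 2 per direction with the lowest p are named, and likeness is given for HSP60 and HSP98. Remarks on RVB1, RVB2, CPR6, FES1 and PHB genes were chosen after their values were seen. Members and lists were chosen with earlier results of these data known. Nothing says that libraries came from separate cultures, so the spread behind each p-value may be technical. Replicates of a group were further apart than sampling noise allows (chi-square per degree of freedom 14.4 to 121). Intervals on single counts cover counting error only.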

Additional observations from a re-analysis of the deposited data

How the results depend on the processing

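With all 6 libraries, the 7 chaperone genes other than HSP78 kept a negative log2 fold change under every scaling, filter and tool, and HSP78 kept a positive one except with the replicate block. Total count scaling took the median of all genes from 0.027 to 0.14 and that of the 7 members from -0.25 to -0.16. Genes called over all tested genes numbered 658 with limma on log2(FPKM + 1) without a filter and 348 to 2829 without one library. Members called went from 0 to 2 with DESeq2, where 9% of all genes fell, and to 0 to 7 without one library. The 7 came without metal-ion replicate 2, where 16.5% of all genes fell. DESeq2 gave HSP60 a log2 fold change of -0.50 and HSP10 one of -0.47. For the 21 genes of the lists the count went from 2 to 9 with DESeq2. It was 1 with total count scaling or limma at either pseudocount (1 or 0.1). Without a filter it was 0 in edgeR and limma (11 and 10 lower at an unadjusted p under 0.05). Without one library it was 0 to 15. Over all tested genes, 782 fell with DESeq2, 344 with total count scaling, and 328 and 322 with limma at pseudocounts 1 and 0.1. Without a filter 436 fell in edgeR and 156 in limma, and without one library 94 to 1509 fell.

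Without one library, log2 fold changes ran from -0.37 to -0.034 for HSP70, -0.54 to -0.083 for HSP90, -0.38 to -0.19 for HSP88, -0.61 to 0.066 for HSP98, -0.73 to -0.34 for HSP60, -0.71 to -0.31 for HSP10 and -0.32 to 0.23 for HSP78. HSP98 turned to 0.066 without metal-ion replicate 1 and HSP78 to -0.32 without metal-ion replicate 2. Adjusted p over all alternatives ran from 8.97e-05 to 0.279 for HSP60 and from 0.000150 to 0.278 for HSP10. Without one library, the log2 ratio of sums ran from -0.44 to -0.033 for the cytosolic and from -0.62 to -0.19 for the mitochondrial genes. The mitochondrial percentage of summed FPKM, metal-ion minus control, was -2.19 points, ran from -3.01 to -1.61 without one library and was -1.11 on CPM sums; each move was below the larger of the group SDs (1.45), and those to -3.01 and -1.11 were above the smaller (0.792). The cause of these changes was not tested.

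Whether replicate numbers shared between groups pair the libraries is not known. Deviations of same-numbered libraries correlated at 0.016, 0.14 and 0.033, and not every library correlated best with its own number. With 3 libraries per group, these correlations cannot show whether the libraries were paired. With the replicate number as a block, 729 of 9048 tested genes rose and 636 fell in edgeR. Of the members 2 were called, HSP60 at -0.52 (edgeR adjusted p = 0.0449) and HSP10 at -0.49 (edgeR adjusted p = 0.0395). HSP78 turned to -0.021, and 6 of the 21 list genes were called as fallen.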
